A study of Mus musculus with 12 samples.

Results

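The 9 genes described here, Irf7, Isg15, Usp18, Ifit1, Ifit3, Rsad2, Oasl2, Ifi44 and Bst2, are textbook interferon-stimulated genes, and each was found in the expression table by its name, among 37432 genes in all. RNA-seq was performed on the cochlea, the coiled sensory organ of hearing, at postnatal day 14 (P14). The cochlea was divided into apical, middle and basal turns, and each turn of each genotype was sequenced as 2 biological repeats, which gave 12 libraries in 6 groups. Wild-type mice were compared with Gjb2 35delG/35delG homozygous mice, which carry a 1-base deletion in the gene of the gap junction protein connexin 26. The homozygous animals were males of nearly C57BL/6J background grown entirely from embryonic stem cells injected into tetraploid embryos, were delivered by cesarean section and were nursed by ICR females, whereas the wild-type males of the same age came from a supplier, with no strain given. Genotype and origin of the animals therefore cannot be told apart in any comparison below. The number of mice, cochleae and stem cell lines behind a library was not given, so the p-values measure the spread between the libraries only.

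Interferons are secreted proteins that warn cells of infection. Type I interferons bind the receptor Ifnar1/Ifnar2, whose kinases activate a complex of transcription factors that binds the interferon-stimulated response element in the promoters of target genes. Many tissues keep a low level of this programme without infection, and resident macrophages, neutrophils and endothelial cells carry it as well as epithelial cells.

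The response element is the sequence feature by which these genes are usually recognized, so the promoters were searched for it. RefSeq (build GRCm38.p6) gave a window from 250 bases before to 50 bases after the transcription start for 8 of the 9 genes, all but Usp18. The motif searched was GAAANNGAAA or its reverse complement TTTCNNTTTC, and 5 of the 8 windows held it, compared with 3.44% of all 32851 windows. The gamma-activated site TTCNNNGAA, which reads the same on both strands, was found in the window of Bst2 alone among the 8, compared with 8.30% of all windows. The stretches with the response element are shown because they carry the shared feature of the group. Each is written 5′ to 3′ on the strand of its gene, with 15 bases on either side and the motif in capitals.
Isg15 (chr4:156200860-156200911, minus strand): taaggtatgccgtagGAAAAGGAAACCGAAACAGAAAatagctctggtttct
Bst2 (chr8:71537572-71537617, minus strand): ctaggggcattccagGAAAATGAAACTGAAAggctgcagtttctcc
Ifit1 (chr19:34640770-34640828, plus strand): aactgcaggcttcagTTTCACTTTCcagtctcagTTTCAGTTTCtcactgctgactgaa
Ifit3 (chr19:34583358-34583431, plus strand): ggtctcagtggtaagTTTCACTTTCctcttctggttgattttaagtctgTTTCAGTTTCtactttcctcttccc
Rsad2 (chr12:26456548-26456587, minus strand): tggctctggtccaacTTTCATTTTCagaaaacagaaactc
Isg15 had 3 overlapping matches and Bst2 had 2, while Ifit1 and Ifit3 each had 2 separate ones and Rsad2 had 1. The gamma-activated site of Bst2 overlapped its first response element. No match lay in the windows of Irf7, Oasl2 and Ifi44, which says only that these letters were not found there.

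All 9 genes are protein-coding. In mm10 coordinates, Ifit3 (19:34583531-34588731) and Ifit1 (19:34640871-34650009) both lie on the plus strand of chromosome 19. Oasl2 (5:114896936-114912234) and Usp18 (6:121245906-121270917) also lie on plus strands. Bst2 (8:71534255-71537456), Irf7 (7:141262706-141266481), Rsad2 (12:26442746-26456452), Ifi44 (3:151730922-151749960) and Isg15 (4:156199455-156200796) lie on minus strands. Ifit3 has a close copy, Ifit3b, whose transcripts hold 18.5% of the 150-base windows of Ifit3 exactly, and 1.24% of the windows of Ifit1 were found in Ifit1bl2. The authors kept uniquely mapped reads, so the Ifit3 and Ifit3b values are uncertain. The other 7 genes shared no such window. Irf7 overlaps 45 exonic bases of Phrf1, and Usp18 overlaps 124 of the non-coding Gm44148, on the opposite strand in both cases; the use of strand in the counting was not stated.

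The unit is FPKM, fragments scaled to transcript length and to the mapped fragments of the library, which allows levels to be compared between genes as well as libraries. The sums over all genes of a library lay between 316425 and 408162, scaling factors between 0.920 and 1.06, and the sequencing depth is unknown, so the spread between repeats is the only error available. Mitochondrial genes took 7.32% to 20.6% of a library, and the highest share was in wild-type middle repeat 2. Tissue make-up varied widely: the summed level of 5 hair cell markers ranged from 19.2 to 153 among wild-type and from 3.48 to 68.5 among homozygous libraries, with 4.46 and 3.48 in the homozygous basal libraries; Slc26a5 and Pou4f3 were each listed at 0 in 1 library. Supporting cell markers were present in every library (226 to 962), and Kcne1 of the stria list was listed at 0 in 4 libraries. Gjb2 itself was detected in every library (58.4 to 449). A 1-base deletion does not remove a transcript from such counting, so detection gives no check of the labels. By qPCR against Gapdh, the paper found Gjb2 and Gjb6 reduced in the homozygous cochlea at P14, with no division into turns stated. Here the genotype difference of Gjb2 was not called in any turn: it was 0.49 on the log2 scale in the apical turn (adjusted p = 0.658 in limma), 0.81 in the middle turn (0.319) and −1.94 in the basal turn (0.0238), with −0.21 for the mean of the turns. The apical and middle directions were opposite to that of the qPCR.

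Bst2 was the most abundant of the 9 (mean 25.9 scaled FPKM over the libraries), followed by Ifit3 (11.5) and Oasl2 (11.3), and Ifi44 was the least abundant (0.761). All 9 passed the filter of at least 1 FPKM in 2 libraries, as did 16215 genes in all. Ifi44 reached 1 FPKM in only 3 libraries (1 wild-type and 2 homozygous) and Rsad2 in 8, so their values lie near the limit of the scale. The highest library exceeded the lowest by 4.14-fold for Bst2 and by 28.8-fold for Rsad2. In the order of the 6 group means, the wild-type apical turn was the lowest for 8 of the 9 genes, and the homozygous basal turn was the lowest for Oasl2. The highest group differed among the genes: the homozygous middle turn for Irf7, Isg15, Rsad2 and Ifi44, the wild-type middle turn for Ifit1 and Ifit3, the wild-type basal turn for Usp18 and Oasl2, and the homozygous apical turn for Bst2. Of the 45 pairs of neighbours in these orders, 34 overlapped in their libraries.

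Irf7 encodes a transcription factor that amplifies type I interferon production. Its level was 1.62 and 1.04 scaled FPKM in the wild-type apical libraries (repeats 1 and 2), 1.31 and 6.74 in middle and 8.53 and 3.31 in basal ones. In the homozygous mice it was 4.27 and 3.83, 7.81 and 4.39, and 2.15 and 2.43. The homozygous libraries lay above the wild-type ones in the apical turn and below them in the basal turn, and the groups overlapped in the middle turn.

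Isg15 encodes a ubiquitin-like protein that is attached to other proteins, and Usp18 encodes the protease that removes it and also dampens signalling at the type I receptor. Isg15 was 1.09 and 0.601 in wild-type apical, 1.68 and 8.09 in middle and 8.16 and 6.53 in basal libraries. In the homozygous mice the values were 3.70 and 5.89, 13.9 and 6.92, and 2.90 and 4.44. As for Irf7, the genotypes did not overlap in the apical and basal turns, in opposite directions. Usp18 was 0.913 and 1.08, 0.780 and 8.67, and 6.17 and 3.82 in the wild-type apical, middle and basal turns. The homozygous levels of Usp18 were 1.37 and 2.91, 3.21 and 3.28, and 1.31 and 1.54. The 2 wild-type middle libraries enclosed the homozygous ones, with a ratio between these repeats of 11.1, the widest of any group for Usp18.

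Ifit1 and Ifit3 belong to a family of RNA-binding proteins that restrain the translation of foreign RNA. Ifit1 was 3.02 and 3.61 in wild-type apical, 4.64 and 24.2 in middle and 12.5 and 5.86 in basal libraries. In the homozygous libraries it was 2.60 and 5.77, 5.27 and 3.83, and 6.64 and 4.39, so that the genotypes overlapped in every turn. Ifit3 was 3.75 and 3.17, 5.74 and 30.6, and 21.4 and 8.58 in the wild-type turns. In the homozygous turns Ifit3 was 6.68 and 16.0, 10.4 and 16.4, and 6.08 and 8.80. Only the apical turn separated the genotypes for Ifit3, and the close copy Ifit3b had 0.838 and 0.863 (wild-type) against 1.91 and 4.32 (homozygous) in the apical libraries.

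Rsad2 (viperin) encodes an enzyme that makes a chain-terminating nucleotide, Oasl2 a relative of the oligoadenylate synthetases, and Ifi44 a cytoplasmic protein induced by interferon. Rsad2 was 0.902 and 0.242, 0.616 and 2.91, and 3.13 and 2.86 in the wild-type turns from apex to base, and 0.787 and 2.48, 6.98 and 2.80, and 1.28 and 1.15 in the homozygous turns. Its highest value, like that of Isg15, was in homozygous middle repeat 1. Oasl2 was 6.61 and 6.65, 4.87 and 29.0, and 31.3 and 11.0 in the wild-type turns. The homozygous values of Oasl2 were more even, at 11.2 and 8.15, 8.58 and 8.67, and 4.72 and 4.97. Ifi44 stayed below 2 scaled FPKM throughout, ranging from 0.154 to 1.40 (wild-type) and from 0.514 to 1.83 (homozygous).

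Bst2 encodes tetherin, a membrane protein that holds budding viruses at the cell surface. It was 11.0 and 13.7 in wild-type apical, 11.5 and 25.8 in middle and 34.6 and 24.7 in basal libraries. In the homozygous mice it was 43.7 and 42.2, 40.2 and 36.5, and 16.2 and 10.6. The genotypes did not overlap in any turn: the homozygous libraries were higher in the apical and middle turns and lower in the basal turn. The plot of levels by turn shows this crossing for Bst2, and shows the wide gaps between wild-type repeats in the middle turn for the other genes.

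**Figure D1:**
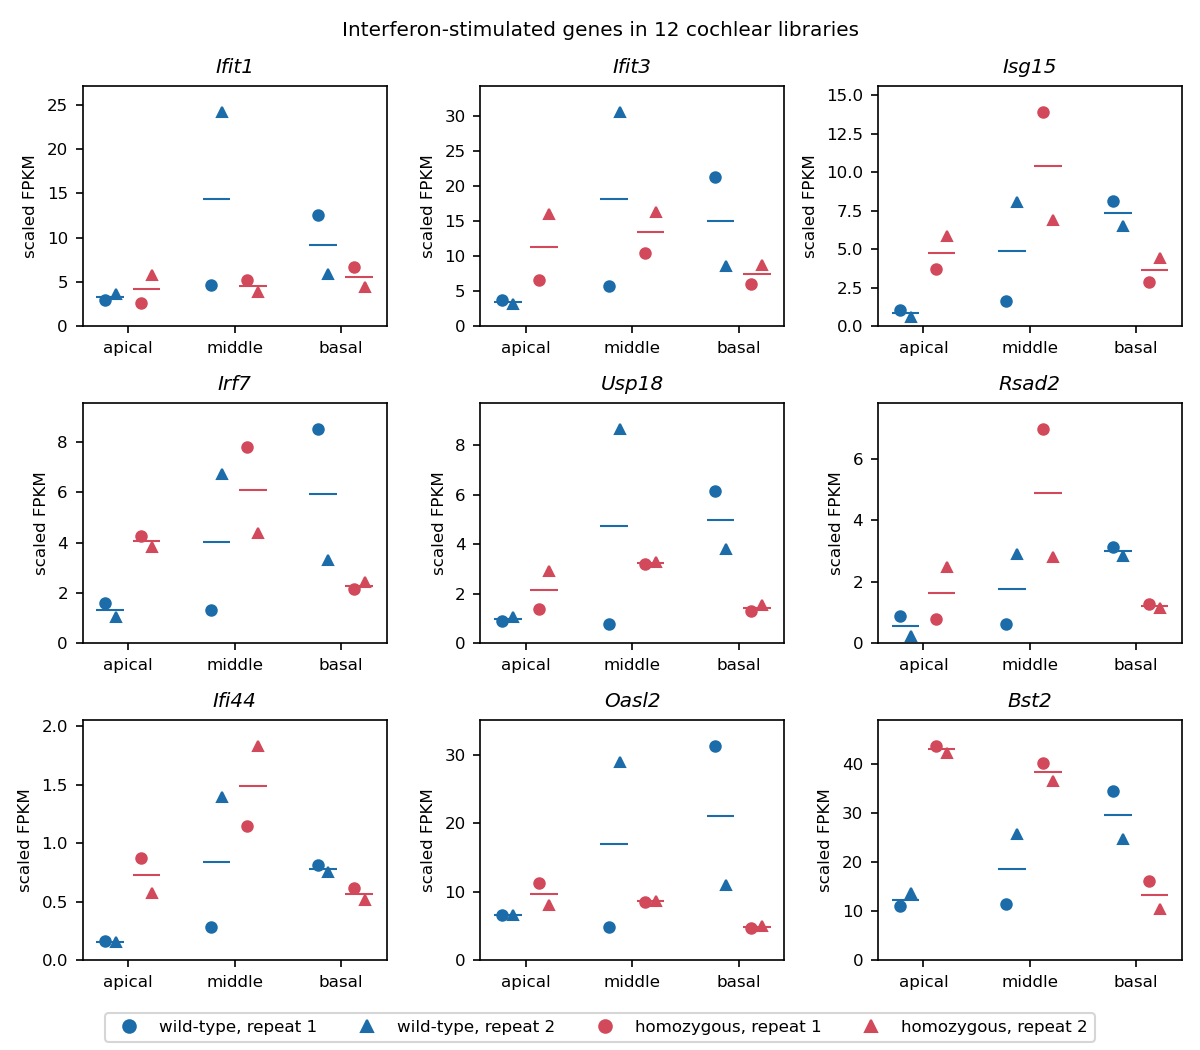
Scaled FPKM (y axis, linear, from 0) of the 9 genes in the apical, middle and basal turns (x axis), with wild-type libraries in blue and homozygous ones in red, circles for repeat 1, triangles for repeat 2 and a line at the mean of each pair. Bst2 is near 43 in both homozygous apical libraries and between 11.0 and 13.7 in the wild-type ones, and wild-type middle repeat 2 stands above repeat 1 in all 9 panels.

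The wild-type repeats differed from each other for the whole group of genes. In the middle turn, all 9 were higher in repeat 2 than in repeat 1, by a median of 1.76 on the log2 scale, and 8 of the 9 differed by more than 1, whereas 4.85% of all genes tested did. Usp18 differed by 2.44, Oasl2 by 2.35 and Ifit1 by 2.16. Wild-type middle repeat 2 also had the highest share of mitochondrial genes (20.6%, repeat 1 13.8%), the highest share in its 10 most abundant genes (21.6%, repeat 1 17.6%) and the lowest scaling factor (0.920, repeat 1 0.934) of the 12 libraries, and the part of this in the levels was not tested. In the wild-type basal turn, all 9 were higher in repeat 1, by a median of 0.57, and 3 of the 9 differed by more than 1, compared with 14.4% of all genes. In the other 4 groups, 4 or 5 of the 9 were higher in repeat 2. All 9 genes lay above their own mean over the 12 libraries in wild-type middle repeat 2 and wild-type basal repeat 1. None of the 9 did so in both wild-type apical libraries and wild-type middle repeat 1, and 1 of the 9 did so in each homozygous basal library. Whether wild-type middle repeat 2 and wild-type basal repeat 1 came from the same mouse is not known.

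**Figure D2:**
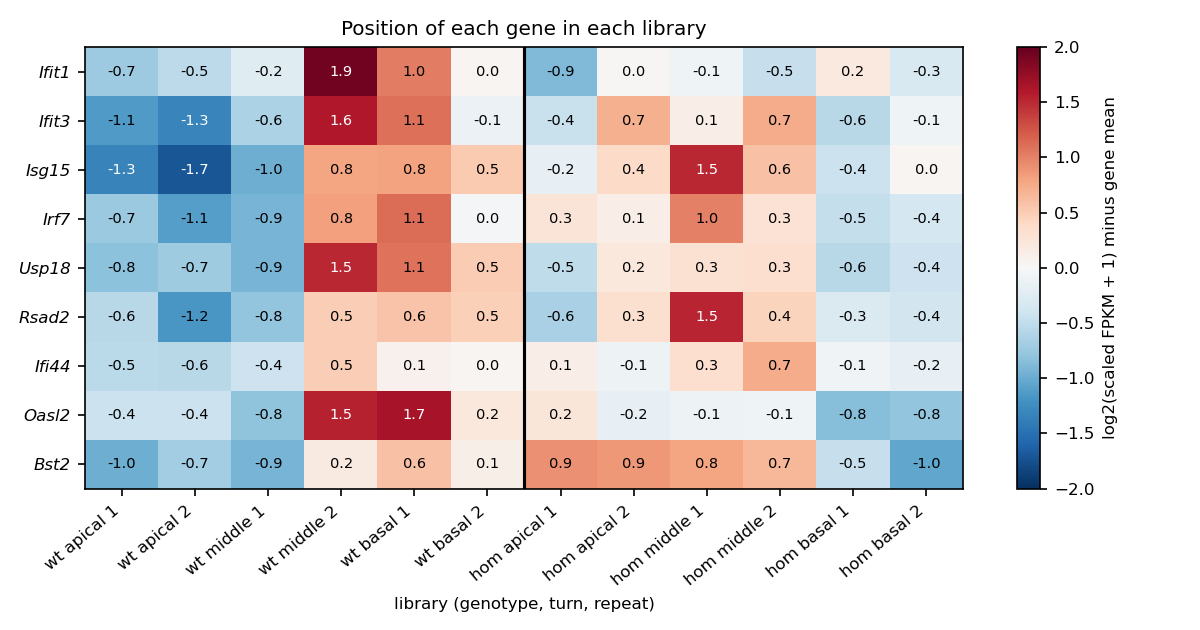
Heat map of log2(scaled FPKM + 1) minus the mean of the gene over the 12 libraries (colour and printed value), with the 9 genes in rows and the libraries in columns (wt, wild-type; hom, homozygous; turn and repeat number). Columns of wild-type middle repeat 2 and wild-type basal repeat 1 are above the gene mean for all 9 genes, and the wild-type apical columns are below it for all 9.

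Some lists of the pathway had the same order of repeats and others had not. Of 45 further interferon-stimulated genes listed, 39 were tested, and all 39 were higher in wild-type middle repeat 2 than in repeat 1 (median 0.73 on the log2 scale), as were 54.7% of all genes tested. In the wild-type basal turn, 26 of the 39 were higher in repeat 1, compared with 45.9% of all genes. Irf9 and Stat2, which belong to the complex that binds the response element, had the same order. Irf9 was 8.87 and 18.5 scaled FPKM in wild-type middle repeats 1 and 2 and 30.1 and 13.1 in the basal repeats. Stat2 was 5.10 and 14.2 and then 12.4 and 5.95. Of the 6 receptor genes, by contrast, 3 were higher in each wild-type middle repeat, and Ifnar1 was between 14.1 and 20.1 in all 12 libraries. Of the 7 interferon regulatory factors, 1 was higher in wild-type middle repeat 2, and Socs3 was lower there. In the wild-type basal turn, 5 of 9 class I antigen presentation genes, 4 of 7 regulatory factors and Socs3 were higher in repeat 2, unlike the 9 genes.

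**Figure D3:**
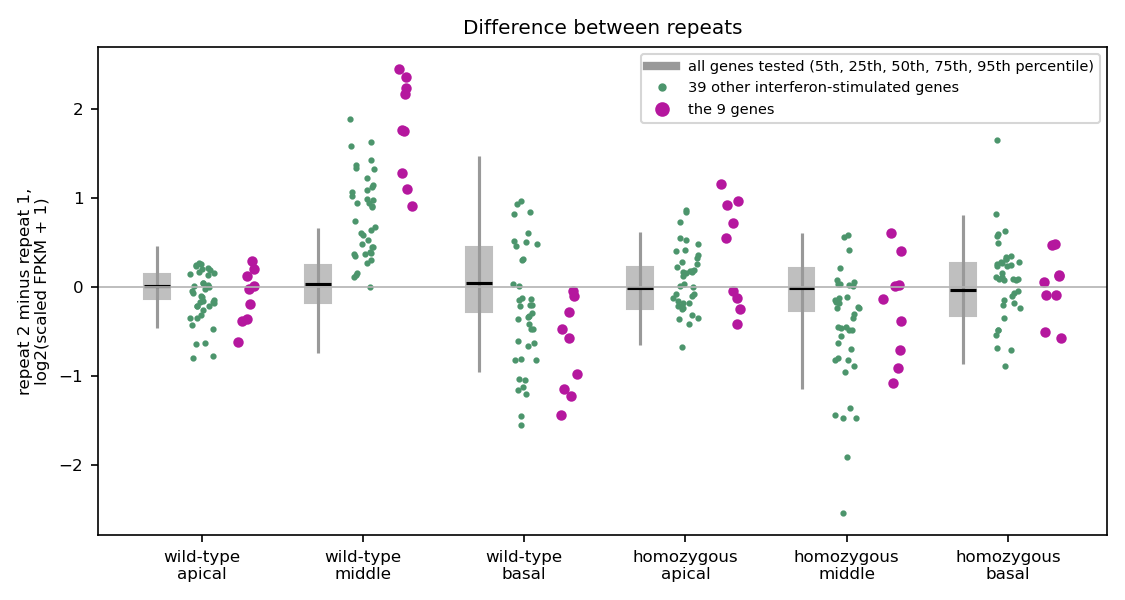
Difference between repeats (repeat 2 minus repeat 1, log2(scaled FPKM + 1), y axis) in each group of genotype and turn (x axis), for all genes tested (grey: box from the 25th to the 75th percentile, line from the 5th to the 95th, black bar at the median), the 39 other interferon-stimulated genes (green) and the 9 genes (magenta). In the wild-type middle turn the 9 genes have a median of 1.76 and all lie above 0, and in the wild-type basal turn all 9 lie below 0.

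Interferon genes themselves were near 0. Of 10 interferon genes sought by name, 3 were found in the table (Ifne, Ifnk and Ifng), and their summed level did not exceed 0.0528 scaled FPKM in any library; since depth is unknown, this gives no limit on their expression. The 6 receptor genes summed to 80.1 to 104 (wild-type) and 96.8 to 118 (homozygous), led by Il10rb (mean 31.6), Ifnar2 (20.8) and Ifngr1 (18.2).

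The first question was which of the genes differ between homozygous and wild-type cochleae in the same turn. In the apical turn, all 9 were higher in the homozygous mice, with a median log2 difference of 0.70, compared with −0.026 over all genes tested, but none passed the test (limma on the log2 scale, adjusted p under 0.01 and more than 2-fold). Over all genes 0.179% were called in the apical turn. At an unadjusted p under 0.05, 2 of the 9 and 16.4% of all genes differed. For 7 of the 9 genes, all but Ifit1 and Rsad2, neither homozygous library came down to the wild-type levels; this held for 26.9% of all genes, and 32.1% were apart in the lower direction, as none of the 9 was. Bst2 had the smallest adjusted p, with 43.0 ± 1.07 against 12.3 ± 1.88 scaled FPKM (mean ± SD, n = 2 each), which is 1.73 ± 0.35 on the log2 scale (SE, adjusted p = 0.0612 in limma). With an alternative that weighted the libraries and with one that used only the 4 apical libraries, Bst2 was called (adjusted p = 0.00805 and 0.00911, within a range of 0.00805 to 0.373 over all alternatives). Isg15 differed by 1.64 ± 0.53 (adjusted p = 0.182 in limma), Ifit3 by 1.36 ± 0.70 and Irf7 by 1.13 ± 0.55. The order of these sizes depends on the pseudocount: with 0.01 in place of 1, the difference was 2.52 for Isg15, 2.07 for Ifi44, 1.81 for Bst2, 1.63 for Irf7 and 1.55 for Rsad2, and none of them was called.

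Whether fewer cells of a type or less RNA per cell lies behind a level cannot be told apart in such bulk tissue. In the apical turn, the 10 macrophage markers summed to 81.2 and 67.6 (wild-type) and to 119 and 150 (homozygous), and the 5 endothelial markers to 33.8 and 22.9 and to 36.9 and 41.0. Stria markers were higher in the homozygous libraries, at 399 and 900 against 174 and 169, with Kcne1 at 35.9 and 121 against 0 and 0.151. The supporting cell sum was also higher, at 705 and 807 against 499 and 492, and consisted mostly of Gjb2 and Gjb6. Gjb2, the mutated gene, was 330.5 and 375.1 against 247 and 252.8, and Gjb6 was 282.5 and 378.1 against 165 and 154.9. The qPCR of the paper had both lower in the homozygous cochlea. Among the other supporting cell markers, Lfng was lower, at 14.1 and 10.2 against 18.7 and 18.1, and Sox2 and Otog overlapped. Hair cell markers were lower in the homozygous libraries, at 68.5 and 45.0 against 150 and 153, as were neuron markers, at 142 and 280 against 555 and 839. The 8 neutrophil markers overlapped, at 264 and 34.0 (wild-type) and 108 and 488 (homozygous). The 4 plasmacytoid dendritic cell markers summed to no more than 3.24 in any library, with Klk1 at 0 in 6 libraries and Cox6a2 at 0 in 5. The part of these cells in the differences was not tested.

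In the middle turn, 6 of the 9 genes were higher and 3 were lower in the homozygous mice (median 0.49, all genes 0.039), and none was called, whereas 0.179% of all genes were. At an unadjusted p under 0.05, 1 of the 9 and 25.4% of all genes differed. Bst2 was the 1 gene without overlap, at 38.3 ± 2.61 against 18.7 ± 10.1 scaled FPKM (log2 1.10 ± 0.35, adjusted p = 0.0959 in limma). Both homozygous libraries were above both wild-type ones for 31.3% of all genes and below them for 28.2%. The direction of several genes in this turn rested on 1 wild-type library. Without wild-type middle repeat 2, Ifit3 changed from −0.052 to 1.06 and Oasl2 from −0.46 to 0.71, and without repeat 1, Irf7 changed from 0.70 to −0.17 and Usp18 from 0.032 to −1.19. Stria markers were higher in the homozygous middle libraries, at 473 and 635 against 210 and 146. The supporting cell sum was 585 and 962 against 291 and 473, and the endothelial sum 57.6 and 55.9 against 41.0 and 47.5. Neuron markers were lower, at 306 and 34.6 against 1323 and 1425. Schwann cell markers were also lower, at 731 and 705 against 19050 and 5329. Hair cell and macrophage sums overlapped. The part of these cells in the differences was not tested.

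Homozygous middle repeat 1 held the highest Isg15 and Rsad2 of the series, and it was also the library with the highest sums of neutrophil markers (6068, compared with 34.0 to 1978 in the other 11), monocyte markers (85.0), B cell markers (127) and T and NK cell markers (11.3). Ifit1 was 5.27 and Oasl2 8.58 there, near their medians of 4.95 and 8.36 over the libraries. Wild-type middle repeat 2, with the highest Ifit1, Ifit3 and Usp18, had a neutrophil sum of 235, a macrophage sum of 134 and a T and NK cell sum of 2.02, and repeat 1 had 42.0, 200 and 2.06. Its erythroid sum was 1397, against 447 in repeat 1. Wild-type basal repeat 2, in which all 9 were lower than in repeat 1, had the higher neutrophil (1978 against 408), macrophage (295 against 185) and erythroid sums (4658 against 2803). Neuron markers were 7.73 and 730 in wild-type basal repeats 1 and 2. The 4 bone markers summed to 2116 and 504.5 in homozygous middle repeats 1 and 2. Their sums were 909 and 452 in the wild-type middle repeats and 289 and 2220 in the wild-type basal repeats. The part of these cells in the levels was not tested.

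**Figure D4:**
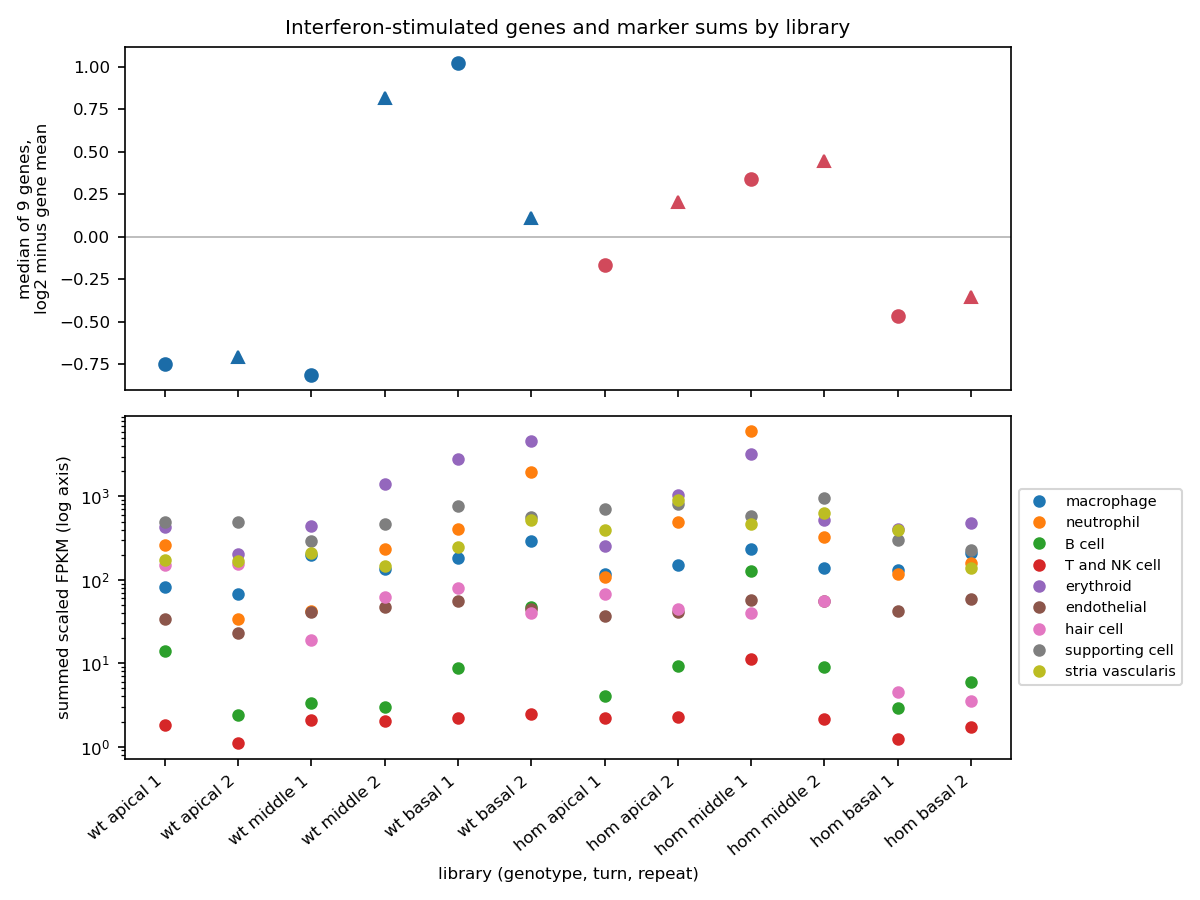
Upper panel: median over the 9 genes of log2(scaled FPKM + 1) minus the gene mean, per library (blue, wild-type; red, homozygous; circle, repeat 1; triangle, repeat 2). Lower panel: summed scaled FPKM of 9 marker lists (log axis) in the same libraries, where the neutrophil sum is highest in homozygous middle repeat 1 (6068) and the hair cell sum is lowest in homozygous basal repeat 2 (3.48).

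In the basal turn, the direction was the opposite of that in the apical turn. All 9 genes were lower in the homozygous mice, with a median of −0.85 (all genes −0.021), and none was called, whereas 4.29% of all genes were. At an unadjusted p under 0.05, 2 of the 9 and 32.4% of all genes differed. For 7 of the 9, all but Ifit1 and Ifit3, the homozygous pair was wholly under the wild-type pair, compared with 27.8% of all genes, and 26.2% were apart in the higher direction. Oasl2 had the largest difference, 4.85 ± 0.173 against 21.1 ± 14.4 scaled FPKM (log2 −1.75 ± 0.68, adjusted p = 0.109 in limma). Usp18 differed by −1.28 ± 0.64 and Bst2 by −1.10 ± 0.35 (adjusted p = 0.0583). Hair cell markers in the homozygous basal libraries, at 4.46 and 3.48 against 78.8 and 39.8, were also lower. So was the supporting cell sum, at 303 and 226 against 763 and 570, which consisted mostly of Gjb2 and Gjb6. Gjb2, Gjb6, Lfng and Otog were each lower, and Sox2 overlapped, at 7.86 and 9.31 against 7.93 and 11.8. Neuron markers were higher, at 2571 and 2808 against 7.73 and 730, as were Schwann cell markers, at 8830 and 14090 against 1300 and 5384. The part of these cells in the result was not tested. Macrophage markers overlapped (130 and 212 against 185 and 295), and neutrophil markers were 118 and 160 against 408 and 1978.

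**Figure D5:**
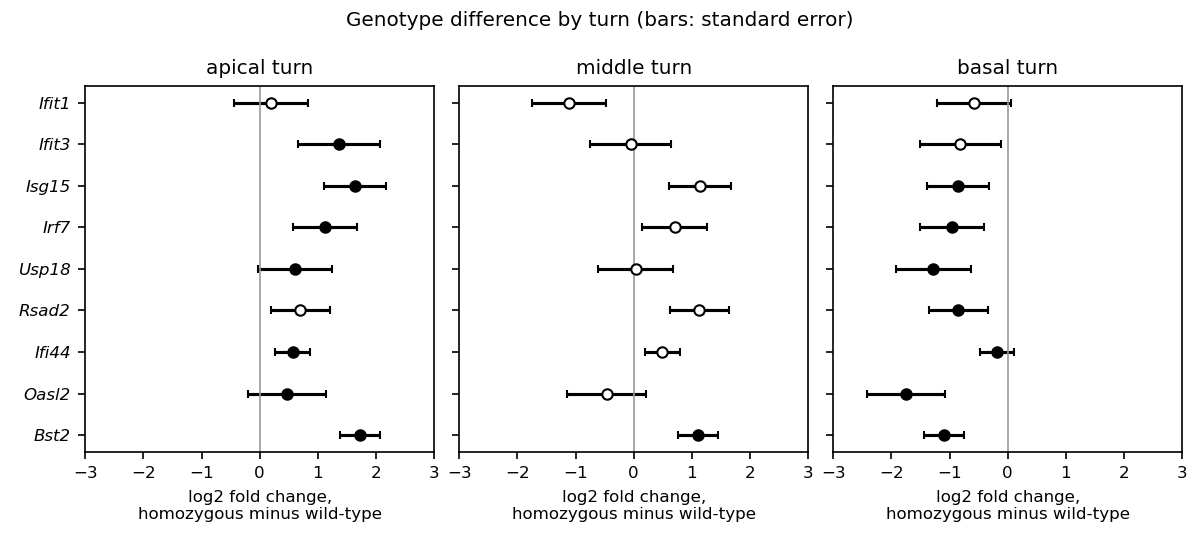
Log2 difference, homozygous minus wild-type, with its standard error from the limma fit (x axis) for the 9 genes in the 3 turns; filled points mark genes whose libraries of the 2 genotypes do not overlap. All 9 points lie above 0 in the apical turn and below 0 in the basal turn, from 0.20 to 1.73 and from −1.75 to −0.19.

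Averaged over the 3 turns, 6 of the 9 genes were higher and 3 lower, with a median of 0.29, none was called and 0.376% of all genes were. At an unadjusted p under 0.05, this average differed for 1 of the 9, Bst2 (0.58 ± 0.20, adjusted p = 0.166 in limma), and for 18.6% of all genes.

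The second question was whether the genotype difference itself depended on the turn. Between the basal and the apical turn, the difference changed by a median of −2.09 over the 9 genes, with all 9 negative. None was called at an adjusted p under 0.01, whereas 0.796% of all genes were, and 4 of the 9 and 28.4% of all genes had an unadjusted p under 0.05. Bst2 came nearest, at −2.83 ± 0.49 (adjusted p = 0.0127 in limma, 0.00781 to 0.0656 over 24 alternatives), followed by Isg15 at −2.49 ± 0.75 (adjusted p = 0.0643). For 6 of the 9 genes, Irf7, Isg15, Usp18, Oasl2, Ifi44 and Bst2, the libraries were apart in both turns and in opposite directions, higher in the apical and lower in the basal turn, as they were for 9.20% of all genes. Between the basal and the middle turn, 8 of the 9 were negative (median −1.31), and Bst2 had −2.20 ± 0.49 (adjusted p = 0.0141 in limma, 0.00722 to 0.0444 over 24 alternatives). None was called there, compared with 8.91% of all genes; 3 of the 9 and 37.7% of all genes had an unadjusted p under 0.05. Between the middle and the apical turn none of the 9 was called, nor was any other gene (0%), and at an unadjusted p under 0.05 there were 0 of the 9 and 8.05% of all genes. The 3 contrasts share libraries and are not independent of each other.

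The third question was how the genes vary along the wild-type cochlea. From the apical to the basal turn all 9 were higher, by a median of 1.38 (all genes −0.028). Isg15 differed most, at 7.34 ± 1.15 in the basal against 0.844 ± 0.344 scaled FPKM in the apical turn (log2 2.18 ± 0.53, adjusted p = 0.0884 in limma), and Bst2 differed by 1.19 ± 0.35 (adjusted p = 0.131). None was called, whereas 0.0863% of all genes were, and 6 of the 9 and 20.3% of all genes had an unadjusted p under 0.05. From the apical to the middle turn all 9 were again higher (median 0.87), with none called, 0.0863% called over all genes, and 3 of the 9 and 19.9% of all genes at an unadjusted p under 0.05. Middle repeat 2 lay above both apical libraries for all 9 genes, but middle repeat 1 lay below the higher apical library for 5 of the 9. From the middle to the basal turn none was called, 0% of all genes were, and 0 of the 9 and 15.2% of all genes had an unadjusted p under 0.05. These contrasts use the wild-type apical and basal libraries that also enter the genotype differences.

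Around these 9 genes, 97 genes of the wider pathway were tested. In the apical turn, 79 were higher and 18 lower in the homozygous mice and none was called, beside 0.179% of all genes. In the middle turn, 80 were higher and 17 lower and 1 was called, which is 1.03%, beside 0.179% of all genes. In the basal turn, 17 were higher and 80 lower and 3 were called, which is 3.09% and below the 4.29% of all genes. Over all genes, 47.1%, 53.4% and 48.3% were higher in the apical, middle and basal turns. Among the 39 further interferon-stimulated genes, 31 were higher in the apical turn (median 0.19), 30 in the middle turn (median 0.50) and 4 in the basal turn (median −0.62). Those of highest mean level were Ifi27 (109 scaled FPKM), Ifitm3 (102) and Ifitm2 (74.6).

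Ifi27l2a, of the Ifi27 family of small interferon-induced proteins, had the steepest fall of them, from 85.3 and 40.9 scaled FPKM in wild-type to 6.97 and 3.86 in homozygous basal libraries. The groups did not overlap, and the log2 difference was −3.27 ± 0.41 (adjusted p = 0.00456 in limma). Its relative Ifi27 fell as well in that turn, from 185 and 159 to 71.3 and 66.6 (−1.30 ± 0.23, adjusted p = 0.00904 in limma).

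Class I antigen presentation genes, which both types of interferon induce, had the same signs. All 9 tested were higher in the homozygous apical and middle turns (medians 0.47 and 0.89), and 8 of the 9 were lower in the basal turn (median −0.29). B2m, the shared light chain, was 145 and 133 in the apical turn of wild-type mice and 328 and 410 in that of homozygous mice. The heavy chain gene H2-K1, which has close relatives whose reads may be shared, fell in the basal turn from 99.5 and 84.8 to 31.3 and 29.9 scaled FPKM (log2 −1.56 ± 0.18, adjusted p = 0.00317 in limma). Its genotype difference also changed from the apical to the basal turn (−1.98 ± 0.25, adjusted p = 0.0069), the apical levels being 46.6 and 42.5 (wild-type) and 58.1 and 62.4 (homozygous). From the middle to the basal turn, the differences of H2-K1, H2-D1, Tapbp, Mavs, Pml, Ifi27 and Ifi27l2a were called as more negative, 7 of 97 genes (7.22%), which is below the 8.91% over all genes.

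The guanylate-binding and related genes, which answer mainly to interferon gamma, were all higher in the homozygous apical and middle turns, 13 of the 13 tested (medians 0.72 and 0.74), and 8 of the 13 were lower in the basal turn (median −0.15). Gbp4 rose in the middle turn, from 0.549 and 0.747 to 3.82 and 5.06 scaled FPKM (log2 1.72 ± 0.20, adjusted p = 0.00889 in limma). It was also higher without overlap, but not called, in the apical turn (1.51 and 0.939 to 2.37 and 2.19). The same held in the basal turn (1.20 and 1.45 to 2.49 and 2.54, log2 0.60 ± 0.20). Gbp4 was thus among the 5 of the 13 that were higher in the basal turn. Its average over the turns was 0.96 ± 0.12 (adjusted p = 0.00597 in limma), under the fold limit. Irgm1 (mean 13.2), Irgm2 (6.90) and Igtp (6.50) were the most abundant of this list, and none of them was called.

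None of the signalling genes was called in the comparison of genotypes within a turn. The median difference of the 6 Jak and Stat pathway genes was 0.063 (apical), 0.063 (middle) and −0.41 (basal turn), and that of the 6 receptor genes was 0.21, 0.22 and −0.070. Jak1 (mean 30.1) was the most abundant of the former. Of the 7 interferon regulatory factors, which include Irf3 (mean 17.9) and Irf2 (10.7), all 7 were higher in the middle turn (median 0.82) and all 7 lower in the basal turn (median −0.36). Of 12 tested sensors and adaptors of nucleic acids, 9 were higher in the apical and 10 were lower in the basal turn (medians 0.28 and −0.62), with Tbk1 (13.7), Mavs (13.5) and Tlr3 (9.19) at the highest mean levels. All 4 genes of the Isg15 conjugation list were higher in the apical and middle turns and lower in the basal turn, without a call; Ube2l6, its conjugating enzyme, led with a mean of 11.8. Socs3 (mean 3.71), a feedback inhibitor, was not called.

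The 9 genes varied together over the 12 libraries. Pearson's r was positive for all 36 pairs, with a median of 0.74 (0.20 to 0.93), and remained positive for all 36 when each library was taken as its deviation from the mean of its group (median 0.77). These are 12 libraries in 6 groups that share their turns and genotypes, so r is a description only. With 2 libraries a group, the 2 deviations of a gene mirror each other. The wild-type middle pair, with all 9 higher in repeat 2 (median 1.76), had the widest of them and weighs most in this r. Ifit1 (r = 0.71) and Bst2 (0.76) had the lowest r with the mean of the 9, and the pair of Ifit1 and Bst2 had the lowest of all. The genes most like the mean of the 9, among 16206 others, were Dhx58 (r = 0.96), Rtp4 (0.94), Trim30d (0.93), Gbp3 (0.93), Herc6 (0.92), Xaf1 (0.92), Igtp (0.90), Mir22hg (0.90), Ddx60 (0.90) and Nrep (0.89). Of these 10, 8 were on the pathway lists, which hold 97 of the genes compared, and Mir22hg and Nrep were not. The members and lists were chosen with earlier results of these data known, so this count too is a description only.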

How the data were processed

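Total RNA of apical, middle and basal cochlear turns at P14 was sequenced by the authors as 150-base read pairs. Per the submitters' processing notes, fastp 0.20.0, STAR 2.7.3a, featureCounts 2.0.0 and StringTie 2.0 were used with mm10. The authors kept uniquely mapped reads and deposited FPKM calculated with StringTie; no read counts were used here, so no count test was run, and counting error is unknown. Annotation version and library strandedness are not given in the sources used here.

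Each library was scaled by its median ratio to the geometric mean of 11552 genes. The 16215 genes with at least 1 FPKM in 2 libraries entered a limma fit (version 3.58.1 in R 4.3.3) to 6 group means of log2(scaled FPKM + 1) with a mean-variance trend, which left 6 residual plus 2.78 prior degrees of freedom; p-values were two-sided and Benjamini-Hochberg adjusted over all genes. Calls needed an adjusted p under 0.01 and a fold over 2; fold changes near 1 FPKM are understated on this scale. The fit was also run on simulated data with independent noise and added changes of known size. These data do not cover shared mice or differences in tissue make-up. Named genes were the 9, Gjb2, and in each pathway list the 3 of highest mean and up to 3 called, plus the 10 most correlated with the 9; Stat2, Ifnar1, Ifit3b and marker genes were named after their values were seen. Some genes that the rule covers are not reported here. The members and lists were chosen with earlier results of these data known. Positions came from the table and GENCODE M21, which held all 9 identifiers (Isg15 in another version), and promoters from RefSeq. Alternatives were 2 smaller pseudocounts (0.1 and 0.01), no filter or 5 FPKM, FPKM as deposited, quantile normalization, no trend, blocks by repeat number, library weights, 1 turn alone, an adjusted p under 0.05, and each library left out. Figures used matplotlib 3.10.9.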

Additional observations from a re-analysis of the deposited data

Results flagged for a closer look

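In 6 of the 9 genes the libraries of the genotypes were apart in opposite directions in the apical and basal turns, and the difference was tested as an interaction. For 9.20% of all genes the libraries were apart in the same way. The 6 genes were picked by this separation in the same libraries, so the sign of their change was fixed in advance. The genotype difference changed from the apical to the basal turn by −2.49 for Isg15, −2.09 for Irf7, −1.89 for Usp18, −0.75 for Ifi44, −2.22 for Oasl2 and −2.83 for Bst2 on the log2 scale. For Bst2 the middle and basal turns were also apart in opposite directions, with a change of −2.20. None of the 7 passed an adjusted p of 0.01 in limma, and both of Bst2 passed 0.05. So did 12.5% of all genes for basal minus apical and 22.9% for basal minus middle.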

How the results depend on the processing

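No member was called in any of the 10 comparisons as reported, and 234 alternative counts gave the same. A further 9 gave 1 call, Bst2 each time: in the apical turn (1 with library weights, 1 with only the 4 libraries of the turn), for basal minus apical (1 with quantile normalization, 1 at an adjusted p under 0.05 with and without the fold limit) and for basal minus middle (1 at an adjusted p under 0.05 with and without the fold limit). Without the fold limit, 12.5% of all genes passed an adjusted p of 0.05 for basal minus apical and 22.9% for basal minus middle. With each library left out, counts ranged from 0 to 1 for basal minus apical (1 without wild-type basal repeat 2) and from 0 to 1 for basal minus middle (1 without wild-type middle repeat 2), and were 0 in the other 8 comparisons. Of the single-gene differences, 13 turned sign, none of them called. Ifit3 in the middle turn became 0.11 with FPKM as deposited and ranged from −1.17 to 1.06 with libraries left out (0.25 without homozygous middle repeat 1, 1.06 without wild-type middle repeat 2), and Usp18 became −0.047 with quantile normalization and ranged from −1.19 to 1.25. Irf7 ranged from −0.17 to 1.58 and Oasl2 from −1.64 to 0.71 in the middle turn, and Ifit1 from −0.26 to 0.65 in the apical turn, negative without homozygous apical repeat 2. In the mean of the turns, Ifit3 ranged from −0.21 to 0.54 (−0.21 without wild-type middle repeat 1, −0.04 without wild-type basal repeat 2, −0.026 without homozygous apical repeat 2), Irf7 from −0.0019 to 0.58 and Usp18 from −0.62 to 0.20. Smaller pseudocounts raised the apical differences of Ifi44 from 0.57 to as much as 2.07 and of Rsad2 from 0.70 to 1.55. No genotype difference turned sign in the basal turn. Of 15 correlations between the deviations of same-numbered libraries, within and across genotypes, 4 were over 0.1 (−0.43 to 0.45). Within the wild-type they were −0.019 (apical and middle), 0.050 (apical and basal) and −0.293 (middle and basal). Within the homozygous mice they were −0.415, 0.267 and −0.248 in the same order. Whether libraries of different turns, with the same or crossed repeat numbers, share a mouse cannot be told from this, so turns may not be independent. With a replicate block, which does not cover crossed numbers, 0 members were called in every comparison. Depth is unknown, so levels under 1 FPKM, as for Ifi44, carry an unknown counting error, and 2 libraries per group leave 6 residual degrees of freedom. The cause of these changes was not tested.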
